A study of Homo sapiens with 18 samples.

Results

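The genes described here build the DNA replication machinery of S phase, apart from the MCM subunits of the helicase. They are 49 genes chosen by symbol for their known roles, and all 49 were among the 13992 genes of the deposited table and passed the filter on low values. The roles cover origin recognition and licensing (9 genes), CDC45 and the GINS complex (5), the sliding clamp and its loader (6), the replicative polymerases and primase (9), lagging strand processing and the RPA complex (6), nucleotide supply (4), chromatin assembly and DNA methylation (4), fork protection (3), and E2F1 with the E-type cyclins (3). The cells were wild-type HMC3, an immortalized human line labelled as microglial, kept for 24 h with oxidized low-density lipoprotein (oxLDL), a modified lipoprotein particle that scavenger receptors take up. There were 6 doses, 0, 1, 2.5, 10, 50 and 100 µg/ml, with 3 poly-A RNA libraries each, and all 18 libraries came from the same line and carry the same batch value in the labels. No label says that the 3 libraries of a group were separate cultures. The p-values therefore rest on library-to-library spread, which could be technical.

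Values are FPKM, read numbers scaled by transcript length and by the library total. Between 13919066 and 37382244 reads per library were recovered from the steps of the FPKM values, and each replication gene had between 289 and 26652 reads in every library. Of 15 microglia and macrophage markers 2 were among the symbols listed, and CD68 was at 11.9 to 12.4 FPKM without oxLDL and 14.3 to 15.7 with 100 µg/ml, with no overlap (log2 0.277, SE 0.092, adjusted p = 0.0512, limma). Of 11 pericyte and fibroblast markers 7 were listed, and COL1A1, TAGLN and THY1 had the highest levels. The summed FPKM of the 7 was 709 to 775 at 0 µg/ml and 519 to 587 with 100 µg/ml, with 3 of the 6 tested called lower. Most of this sum was COL1A1, at 476 to 525 FPKM without oxLDL and 334 to 374 with 100 µg/ml. THY1 was also called lower, and TAGLN was not called. The 2 neuron markers listed summed to 32.1 to 33.3 FPKM without oxLDL and 27.1 to 29.4 with 100 µg/ml, with TUBB3 called lower. The part of these marker levels in the results below was not tested.

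As background, replication starts at origins, where the origin recognition complex together with CDC6 and CDT1 loads the MCM helicase in G1. CDC45 and GINS then join MCM to make it an active helicase, and polymerases, the PCNA clamp and ligase copy both strands. Many of these genes are transcribed under E2F factors as cells pass from G1 into S phase, so their summed RNA is widely read as a sign of cycling cells. In RNA from whole cultures, fewer cells in S phase and less RNA in each of them cannot be told apart.

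Promoter letters were available for 44 of the 49 genes, from RefSeq on GRCh38.p14, as 250 bases before to 50 bases after the first start site listed for a gene. GINS4, POLD3, RPA2, RPA3 and CCNE2 had no entry matched. An E2F motif, TTTCCCGC, TTTCGCGC, TTTGCCGC or TTTGGCGC on either strand, was found in 18 of the 44 promoters (40.9%). The same letters were in 908 of 27305 promoters of all genes (3.33%) and in 535 of 9519 promoters of the genes tested here (5.62%). The NF-Y motif CCAAT was in 25 of the 44 (56.8%), against 35.7% of all promoters and 37.0% of those of the genes tested. The motif called CHR, TTTGAA or TTCGAA, was in 1 of the 44 (2.27%), against 16.6% of all promoters and 10.8% of those of the genes tested. The median GC content was 66.3% for the replication promoters, 65.7% for those of the genes tested and 58.3% for all of them. The 4 stretches that follow are shown because UHRF1 and GINS2 were lower at 100 µg/ml while E2F1 and PCNA were not called, and all 4 carry the motif close to the start. Each is the 100 bases that end just before the start site, written 5′ to 3′ on the gene's strand, with the E2F motif in capitals.
UHRF1, chr19:4909401-4909500, plus strand: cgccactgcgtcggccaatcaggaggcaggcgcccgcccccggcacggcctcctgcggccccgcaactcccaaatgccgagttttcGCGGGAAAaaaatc
GINS2, chr16:85688955-85689054, minus strand: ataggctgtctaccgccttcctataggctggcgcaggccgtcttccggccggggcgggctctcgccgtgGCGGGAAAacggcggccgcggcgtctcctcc
E2F1, chr20:33686386-33686485, minus strand: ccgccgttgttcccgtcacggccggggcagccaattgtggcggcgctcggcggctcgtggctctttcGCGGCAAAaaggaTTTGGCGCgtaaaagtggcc
PCNA, chr20:5126623-5126722, minus strand: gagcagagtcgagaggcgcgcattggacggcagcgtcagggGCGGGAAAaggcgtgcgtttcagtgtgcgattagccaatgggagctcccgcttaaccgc
UHRF1, GINS2 and PCNA hold the same 8 letters, GCGGGAAA, and E2F1 holds a pair of other matches. Among the genes called lower at 100 µg/ml the motif was in 5 of 10 promoters (50.0%), and among the others in 13 of 34 (38.2%), a count given as a description.

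The replication genes were well expressed. Their median over the 18 libraries of all doses was 23.9 FPKM, against 6.46 FPKM for all 12127 genes tested. Without oxLDL TK1, the cytosolic thymidine kinase of the salvage pathway, had the highest level at 470.8 ± 15.2 FPKM (SD, n = 3), followed by PCNA at 229.3 ± 7.21. RRM2, the regulated subunit of ribonucleotide reductase (146.4 ± 1.31), and FEN1, the flap endonuclease (144.4 ± 2.12), came next and did not differ beyond their spread. The coefficient of variation among the 3 untreated libraries had a median of 2.85% over the 49 genes and ranged from 0.177% to 11.04%. RFC3 (0.768 FPKM), POLA1 (2.829) and PRIM2 (3.241) were lowest, but the lengths implied by their FPKM steps were 31.4, 4.51 and 5.52 times the exon length in GENCODE 29. Scaled to the GENCODE lengths their untreated levels were 24.14, 12.75 and 17.9 FPKM. For the other 46 genes the ratio was between 0.319 and 2.4. The length cancels in the ratio of a gene's FPKM between doses, but the 0.5 FPKM added before taking log2 shrinks the fold changes of genes listed this low.

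**Figure D1:**
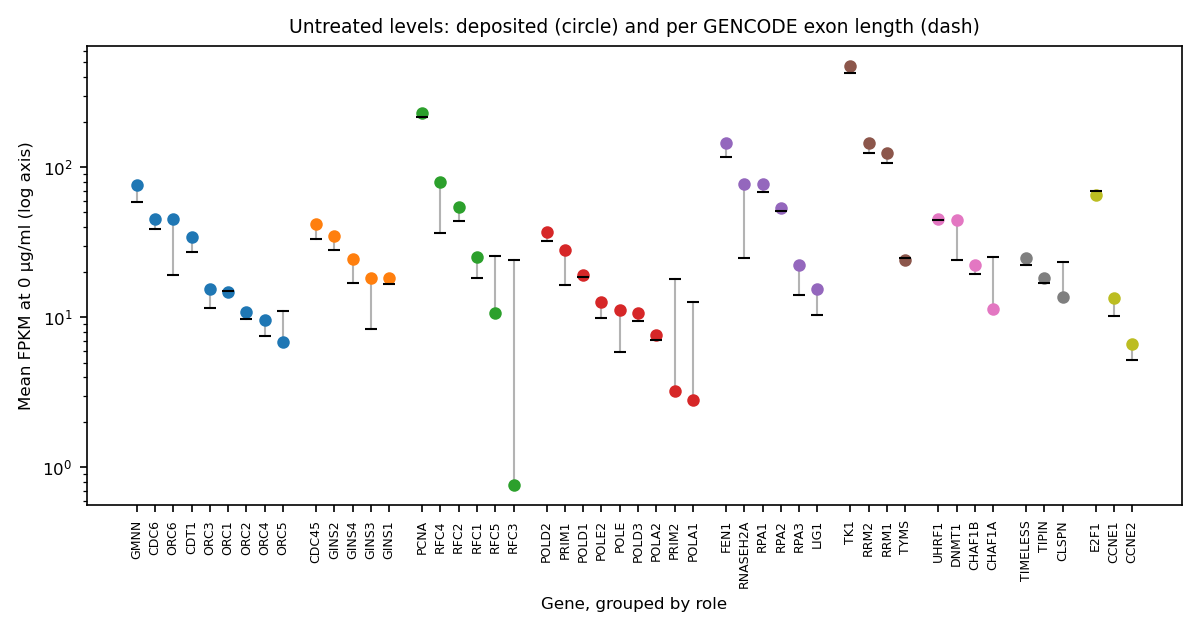
Mean FPKM without oxLDL of the 49 replication genes on a log axis, grouped by role; circles are the deposited values over 3 libraries and dashes the same values per GENCODE exon length. TK1 at 470.8 and PCNA at 229.3 FPKM stand highest, and the circles of RFC3, POLA1 and PRIM2 lie far below their dashes.

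At 1, 2.5 and 10 µg/ml no replication gene was called. Calls are at a Benjamini-Hochberg adjusted p under 0.05 over all 12127 genes, from limma on log2(FPKM + 0.5), two-sided, and fold changes below are on that scale with their standard error (SE). Every dose is compared with the same 3 untreated libraries, so the comparisons are not independent of each other. Of all genes tested, 0 were called with 1 µg/ml (0.0%), 0 with 2.5 µg/ml (0.0%) and 5 with 10 µg/ml (0.0412%). At an unadjusted p under 0.05 the counts of replication genes were 0, 1 and 5 for the 3 doses (0.0%, 2.04% and 10.2%, against 3.01%, 4.38% and 9.77% of all genes tested), and limma-voom on the recovered reads also called 0 of them at each. Median log2 changes of the 49 genes were -0.011, -0.007 and -0.002.

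At 50 µg/ml RFC4 and POLD1 fell and ORC6 rose, and the other 46 genes were not called. Of all genes tested, 3.69% were called lower and 3.78% higher at this dose, so 2 lower and 1 higher among 49 is close to the background. The direction was less even: 38 of the 49 fold changes were below 0, with a median of -0.036 against 0.004 over all genes. All 3 libraries lay below all 3 untreated ones for 17 replication genes and above them for 4, against 13.3% and 14.9% of all genes tested. The count of calls was small enough to turn on 1 library. It was 1 without untreated replicate 1 and 1 without 50 µg/ml replicate 2, and it was 7 after median-ratio scaling, 6 by limma-voom and 1 without the variance trend.

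At 100 µg/ml 10 of the 49 genes fell and 0 rose, against 7.51% of all genes tested called lower and 7.94% higher. These shares are not matched for level, since the median was 23.9 FPKM for the replication genes and 6.46 FPKM for all genes tested. The 10 were CDC45, GINS1, GINS2, RFC2, RFC4, FEN1, LIG1, TYMS, TK1 and UHRF1. Their falls were small, with a median size of 0.179 on the log2 scale, and no replication gene changed by 0.25 or more. Over all 49 the median log2 change was -0.068, against -0.004 for all genes tested, and 38 were below 0 (77.6%, against 51.5% of all genes). In 22 genes all 3 libraries at 100 µg/ml were below all 3 untreated ones, in 3 they were above, and in 24 the groups overlapped. For all genes tested 16.9% lay wholly below and 16.5% wholly above. The 39 genes not called had log2 changes between -0.216 and 0.099, and the lowest and highest bounds of their 95% intervals, from different genes, were -0.398 and 0.205. CDC45, GINS1, RFC4, FEN1, LIG1, TK1 and UHRF1 stayed called in each of 15 alternative fits, and GINS2, RFC2 and TYMS did not.

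**Figure D2:**
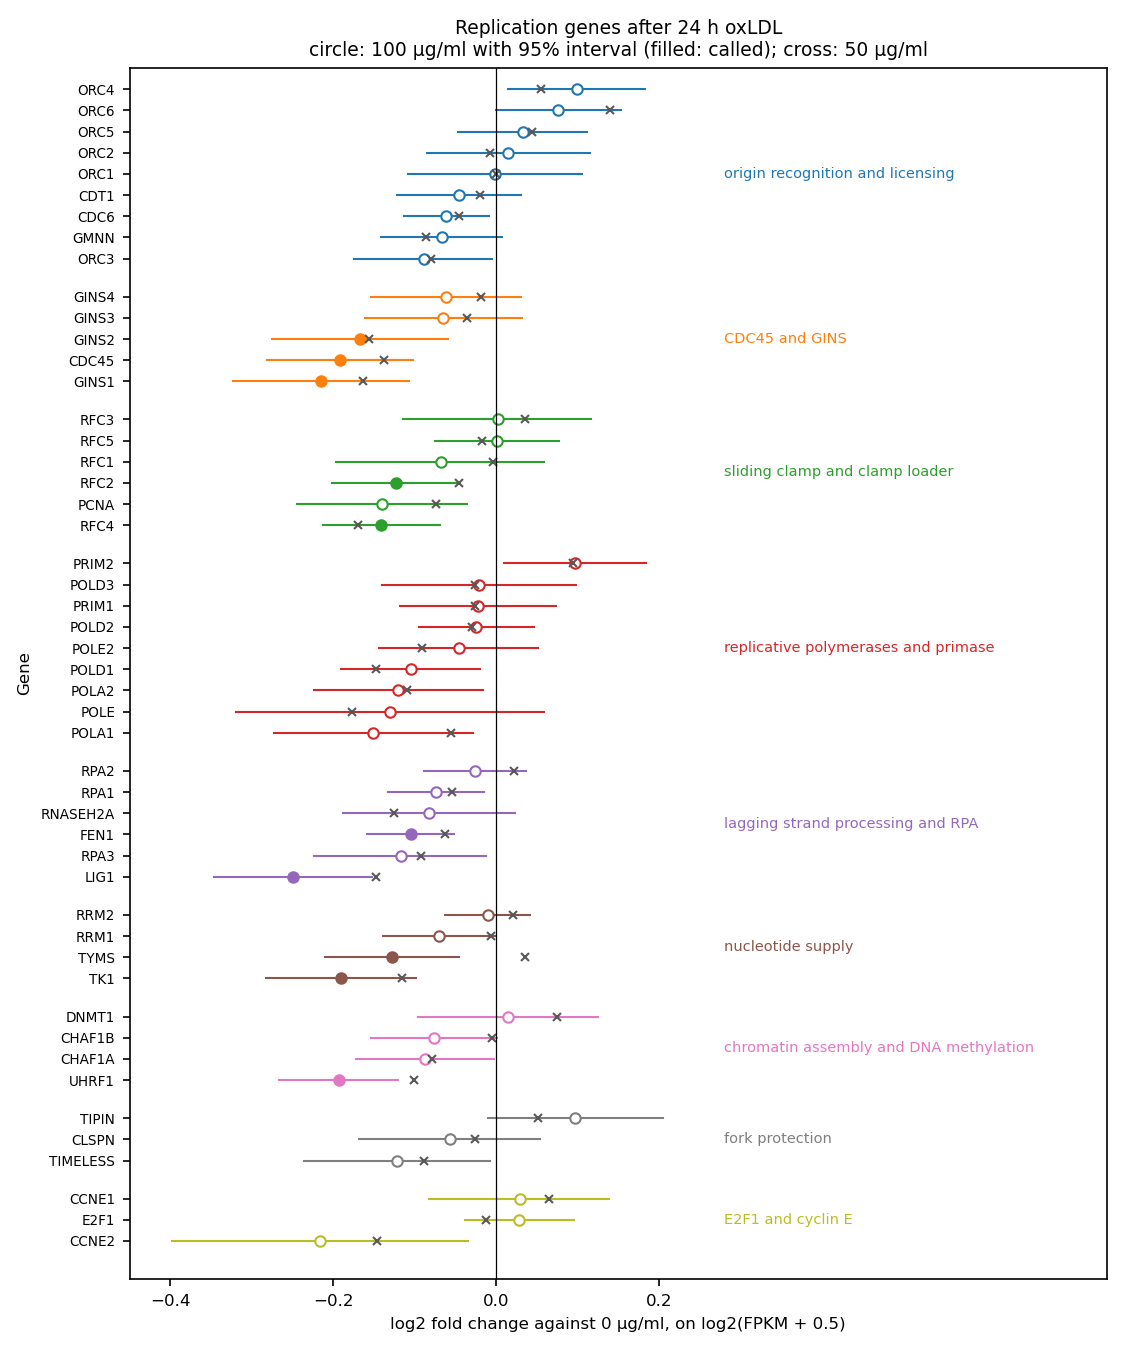
Log2 fold changes against 0 µg/ml of the 49 replication genes by role, on log2(FPKM + 0.5); circles are 100 µg/ml with 95% intervals, filled where called, and crosses are 50 µg/ml. The 10 filled circles lie left of 0, and 38 of the 49 circles are below 0.

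The median shift was seen in each library. The median over the 49 genes of the difference from the untreated mean was -0.034, -0.043 and -0.058 in the 3 libraries at 50 µg/ml, and -0.075, -0.061 and -0.069 with 100 µg/ml. In the 9 libraries at 1 to 10 µg/ml it lay between -0.027 and 0.004. The 6 libraries of the highest doses were thus below all 12 others. Over all genes tested, the same median was -0.013, -0.004 and 0.009 with 100 µg/ml. Between 34 and 40 of the 49 genes were below their untreated mean in each library at 100 µg/ml.

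**Figure D3:**
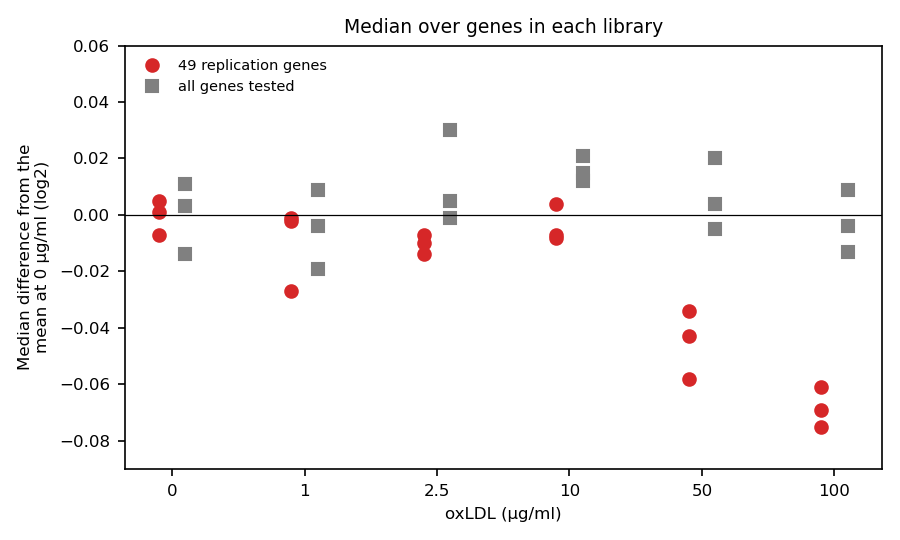
Median over genes of the log2 difference from the mean at 0 µg/ml, for each library by dose; red circles are the 49 replication genes and grey squares all genes tested. The circles at 50 µg/ml (-0.058 to -0.034) and 100 µg/ml (-0.075 to -0.061) lie below all circles at lower doses, and the squares stay around 0.

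Of the 9 genes of origin recognition and licensing 0 were called in either direction at 100 µg/ml, with a median log2 change of -0.001 and 3 at an unadjusted p under 0.05 (33.3%, against 28.1% of all genes tested). CDC6, the ATPase that helps load MCM, had 46.2, 45.6 and 44.6 FPKM without oxLDL and 43.3, 44.4 and 43.0 with 100 µg/ml. The groups did not overlap, but the log2 change of -0.061 (SE 0.025) gave an adjusted p of 0.112. CDT1, its loading partner, had 33.2, 34.3 and 35.1 FPKM without oxLDL and 33.5, 33.2 and 32.6 with 100 µg/ml, with overlapping groups and an adjusted p of 0.449. GMNN encodes geminin, which binds and blocks CDT1. It had 75.4, 76.5 and 75.2 FPKM without oxLDL and 71.9, 73.0 and 71.8 with 100 µg/ml, below every untreated library, with a log2 change of -0.067 (SE 0.035, adjusted p = 0.228). ORC4, a subunit of the origin recognition complex, had 9.76, 9.45 and 9.78 FPKM without oxLDL and 9.93, 10.3 and 10.9 with 100 µg/ml. These 3 libraries were all above the untreated ones, yet the change of 0.099 (SE 0.040) was not called (adjusted p = 0.109), and ORC4 overlaps ACVR2A and MBD5 on the opposite strand.

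ORC6 (chr16:46689643-46698394 on GRCh38), the smallest ORC subunit, was the only replication gene called higher against 0 µg/ml, and that at 50 µg/ml. It had 45.1, 47.0 and 43.1 FPKM without oxLDL, 48.5, 49.2 and 51.4 with 50 µg/ml and 46.2, 48.0 and 48.4 with 100 µg/ml. The 50 µg/ml libraries were above all untreated ones, while those at 100 µg/ml overlapped them. The log2 change was 0.14 (SE 0.036, adjusted p = 0.0266) at 50 µg/ml and 0.076 (adjusted p = 0.181) at 100 µg/ml. The call at 50 µg/ml was lost without untreated replicate 1 or 3 (adjusted p = 0.0801 and 0.128) and without 50 µg/ml replicate 2 or 3 (0.0591 and 0.13). It was also lost without the variance trend (0.0508) and with only these 2 doses in the fit (0.0718).

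CDC45 and GINS, the partners that switch the MCM ring on, made the role with the lowest median at 100 µg/ml. Of these 5 genes 3 fell, beside 7.51% of all genes tested, and all 5 were below 0, with a median log2 change of -0.167. CDC45 (chr22:19479459-19520612) had 44.3, 41.4 and 40.8 FPKM without oxLDL, 36.1, 39.1 and 39.6 with 50 µg/ml and 38.2, 37.3 and 35.1 with 100 µg/ml. Both high doses were below all untreated libraries, and with 100 µg/ml the mean fell by 12.6% (log2 -0.192, SE 0.042, adjusted p = 0.00499). GINS1 (chr20:25407727-25452628), also called PSF1, had 18.5, 17.7 and 18.4 FPKM without oxLDL, 16.5, 15.7 and 16.5 with 50 µg/ml and 14.9, 15.2 and 16.9 with 100 µg/ml. It fell by 14.1% in the mean at 100 µg/ml (log2 -0.215, SE 0.051, adjusted p = 0.00796) with no overlap.

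GINS2 (chr16:85676198-85690073), also called PSF2, had 34.3, 35.0 and 36.0 FPKM without oxLDL, 33.0, 32.7 and 28.9 with 50 µg/ml and 32.1, 31.4 and 30.2 with 100 µg/ml. All 6 libraries of the higher doses were below the 3 untreated ones, and the log2 change at 100 µg/ml was -0.167 (SE 0.051, adjusted p = 0.0349). That call was weak, since it was lost without any of the 3 untreated libraries (adjusted p = 0.0564, 0.0742 and 0.115 without replicate 1, 2 and 3) and without 100 µg/ml replicate 2 or 3 (0.0716 and 0.134). It was also lost after median-ratio scaling (0.0728) and without the variance trend (0.0534). GINS2 overlaps GSE1 on the opposite strand, and the kit does not mark strand. The remaining GINS3 and GINS4 had log2 changes of -0.065 and -0.062 and were not called.

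Among the clamp and its loader RFC4 and RFC2 fell at 100 µg/ml, 2 of 6 genes, and 0 rose. Of all genes tested 7.51% were called lower at this dose and 7.94% higher. RFC4 (chr3:186789880-186807058), a small subunit of the loader that opens the PCNA ring, had 80.4, 80.6 and 80.3 FPKM without oxLDL. It had 67.8, 74.3 and 72.3 with 50 µg/ml and 73.7, 71.2 and 73.9 with 100 µg/ml, all below the untreated libraries. With 1 µg/ml (76.3, 76.8 and 78.2) and 10 µg/ml (77.3, 77.7 and 76.6) RFC4 was also below them. The log2 changes at those doses, -0.061 and -0.059, were not called, and at 2.5 µg/ml the groups overlapped. The untreated values lay close together, with an SD of 0.142 FPKM. The log2 change was -0.17 (adjusted p = 0.00588) at 50 µg/ml and -0.141 (SE 0.034, adjusted p = 0.00921) at 100 µg/ml. RFC4 overlaps EIF4A2, a translation factor gene, on the opposite strand.

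RFC2 (chr7:74231499-74254458), another small loader subunit, had 55.9, 53.9 and 53.6 FPKM without oxLDL, 54.7, 53.1 and 50.6 with 50 µg/ml and 50.2, 50.4 and 49.3 with 100 µg/ml. Only the 100 µg/ml libraries were wholly below the untreated ones (log2 -0.123, SE 0.037, adjusted p = 0.0317). The adjusted p was 0.132 and 0.057 without untreated replicate 1 or 2, and 0.0638, 0.0594 and 0.106 without 100 µg/ml replicate 1, 2 or 3. It was 0.0732 after median-ratio scaling and 0.0559 without the variance trend. PCNA, the clamp itself, had 230.8, 221.4 and 235.5 FPKM without oxLDL, 219.4, 217.3 and 216.4 with 50 µg/ml and 217.6, 212.8 and 194.0 with 100 µg/ml. Every library of both doses was below the untreated ones, but PCNA was not called at 100 µg/ml (log2 -0.14, SE 0.049, adjusted p = 0.0663). It was called there without 100 µg/ml replicate 1 (0.0456) and by limma-voom (0.0433). The loader subunits RFC1, RFC3 and RFC5 had log2 changes from -0.068 to 0.002.

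None of the 9 polymerase and primase genes was called at 100 µg/ml, although 8 were below 0, with a median log2 change of -0.046. POLD1 (chr19:50384204-50418016), the catalytic subunit of polymerase delta, had 19.1, 19.9 and 18.4 FPKM without oxLDL. It had 16.9, 16.5 and 18.2 FPKM with 50 µg/ml and 17.4, 17.8 and 17.9 with 100 µg/ml, below all untreated libraries at both doses. It was called at 50 µg/ml (log2 -0.147, SE 0.041, adjusted p = 0.0367) and not at 100 µg/ml (-0.105, adjusted p = 0.0936). The call at 50 µg/ml was lost without untreated replicate 1 or 2 (adjusted p = 0.0976 and 0.134) and without 50 µg/ml replicate 1 or 2 (0.103 and 0.153). Without the variance trend it was 0.0543, and with only these 2 doses in the fit 0.0989. POLD2, the accessory subunit with the highest level of this role, had 36.3, 36.7 and 38.0 FPKM without oxLDL and 36.8, 35.9 and 36.4 with 100 µg/ml, with overlapping groups (log2 -0.025, adjusted p = 0.695). POLA1, the catalytic subunit of polymerase alpha, had 2.825, 2.826 and 2.837 FPKM without oxLDL and 2.475, 2.565 and 2.458 with 100 µg/ml. The groups did not overlap, and its log2 change of -0.151 (SE 0.058) had an adjusted p of 0.0916, or 0.0283 by limma-voom. PRIM2, the large primase subunit, had 3.189, 3.282 and 3.25 FPKM without oxLDL and 3.525, 3.495 and 3.482 with 100 µg/ml. All 3 were above the untreated ones, with a log2 change of 0.097 (adjusted p = 0.13) that limma-voom called (0.11, adjusted p = 0.037).

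Among the 6 genes of lagging strand processing and the RPA complex, FEN1 and LIG1 fell at 100 µg/ml and 0 rose. The shares of all genes tested were 7.51% lower and 7.94% higher. All 6 fold changes were below 0, with a median of -0.094. LIG1 (chr19:48115445-48170603), the ligase that seals Okazaki fragments, had 16.1, 15.1 and 15.5 FPKM without oxLDL, 13.7, 13.8 and 14.4 with 50 µg/ml and 12.6, 12.9 and 13.6 with 100 µg/ml. The 3 groups did not overlap with each other. With 100 µg/ml the mean fell by 16.4%, the greatest fall on the log2 scale among the 49 genes (log2 -0.249, SE 0.046, adjusted p = 0.00134). FEN1 (chr11:61792637-61797244), which trims the flaps ahead of the ligase, had 142.1, 146.2 and 145.0 FPKM without oxLDL, 141.8, 136.5 and 136.5 with 50 µg/ml and 132.8, 134.5 and 135.4 with 100 µg/ml. Its libraries at 100 µg/ml were below all of those at 0 and 50 µg/ml (log2 -0.105 against 0 µg/ml, SE 0.025, adjusted p = 0.00842), and it overlaps TMEM258 on the opposite strand. RPA1, the large subunit of the single-strand binding complex, had 78.1, 75.9 and 78.3 FPKM without oxLDL and 75.2, 73.7 and 71.7 with 100 µg/ml. The groups did not overlap, and the log2 change of -0.074 had an adjusted p of 0.0877. RPA1 overlaps SMYD4 on the opposite strand.

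Within nucleotide supply TK1 and TYMS, enzymes of thymidine nucleotide synthesis, fell at 100 µg/ml, and the ribonucleotide reductase subunits RRM1 and RRM2 were not called. The share of all genes tested called lower at this dose was 7.51%. TK1 (chr17:78174075-78187233) had 469.0, 456.6 and 486.8 FPKM without oxLDL, 449.9, 432.9 and 421.0 with 50 µg/ml and 426.7, 420.9 and 390.3 with 100 µg/ml. Every library of both doses was below the untreated ones, and the mean fell by 12.4% at 100 µg/ml (log2 -0.191, SE 0.044, adjusted p = 0.00654). RRM2 had 145.1, 146.3 and 147.7 FPKM without oxLDL and 142.9, 144.4 and 148.8 with 100 µg/ml. The groups overlapped, with a log2 change of -0.010 and a 95% interval from -0.063 to 0.042 (adjusted p = 0.837). RRM1, the large subunit, had 122.1, 129.5 and 122.6 FPKM without oxLDL and 119.9, 120.0 and 116.4 with 100 µg/ml, below the untreated range, and was not called (log2 -0.070, adjusted p = 0.17). Whether TK1 and RRM2 differ in their response was not tested.

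TYMS (chr18:657604-673578), thymidylate synthase, had 24.1, 24.8 and 23.9 FPKM without oxLDL, 23.6, 24.9 and 26.2 with 50 µg/ml and 22.6, 22.8 and 21.1 with 100 µg/ml. It overlapped the untreated libraries at 50 µg/ml and lay below them at 100 µg/ml, where the mean fell by 8.64% (log2 -0.128, SE 0.039, adjusted p = 0.033). Without untreated replicate 1, 2 or 3 the adjusted p was 0.0761, 0.114 and 0.0502, and without 100 µg/ml replicate 3 it was 0.169. Limma-voom gave 0.0632, a fit without the variance trend 0.0502 and a fit of only the 2 doses 0.0706. The gene overlaps ENOSF1 and TYMSOS on the opposite strand, so its reads cannot be assigned with certainty.

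**Figure D4:**
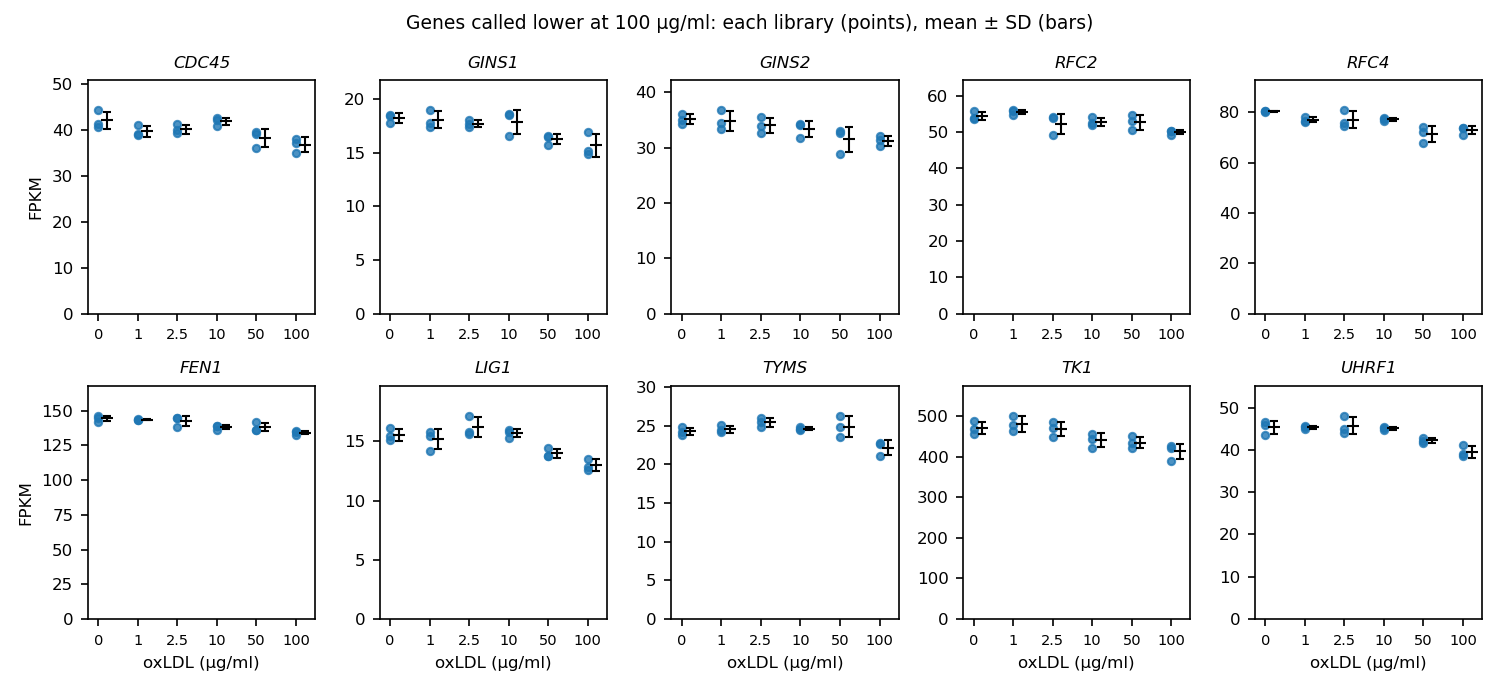
FPKM of the 10 replication genes called lower at 100 µg/ml, by oxLDL dose in µg/ml; points are libraries and bars the mean ± SD of 3, on axes from 0. LIG1 goes from 15.1 to 16.1 FPKM without oxLDL to 12.6 to 13.6 with 100 µg/ml, and in all 10 panels the 100 µg/ml points lie below the untreated ones.

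In chromatin assembly and DNA methylation UHRF1 fell at 100 µg/ml, 1 of 4 genes, beside 7.51% of all genes tested. UHRF1 (chr19:4903080-4962154) reads hemimethylated DNA behind the fork and brings in the methyltransferase DNMT1. It had 45.8, 46.6 and 43.6 FPKM without oxLDL, 41.7, 42.2 and 42.8 with 50 µg/ml and 38.6, 39.0 and 41.2 with 100 µg/ml. The 3 groups were fully separated, and the mean fell by 12.7% at 100 µg/ml (log2 -0.193, SE 0.035, adjusted p = 0.00104). DNMT1 itself had 46.6, 46.8 and 40.9 FPKM without oxLDL and 44.0, 45.6 and 45.8 with 100 µg/ml, with overlapping groups. Its log2 change was 0.015 (SE 0.052, adjusted p = 0.897) and turned to -0.048 without untreated replicate 3. CHAF1A and CHAF1B, subunits of the histone chaperone CAF-1, had log2 changes of -0.087 and -0.076 and were not called.

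No fork protection gene was called. TIMELESS, which travels with the fork together with TIPIN, had 25.7, 25.5 and 23.8 FPKM without oxLDL and 21.4, 23.4 and 24.1 with 100 µg/ml, with overlapping groups (log2 -0.122, SE 0.054, adjusted p = 0.148). TIPIN had 17.88, 19.01 and 18.01 FPKM without oxLDL and 19.3, 19.9 and 19.6 with 100 µg/ml, above the untreated ones in all 3 libraries (log2 0.097, adjusted p = 0.229). CLSPN, the checkpoint adaptor claspin, had a log2 change of -0.057 (adjusted p = 0.538).

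E2F1 and the E-type cyclins, which drive entry into S phase, were not called at any dose against 0 µg/ml. E2F1, the transcription factor, had 62.0, 66.8 and 66.3 FPKM without oxLDL, 64.2, 63.7 and 65.4 with 50 µg/ml and 65.4, 67.3 and 66.2 with 100 µg/ml. The groups overlapped, and the log2 change at 100 µg/ml was 0.028 with a 95% interval from -0.038 to 0.095 (adjusted p = 0.624). CCNE1, cyclin E1, had 12.5, 14.3 and 13.4 FPKM without oxLDL and 14.1, 12.9 and 13.9 with 100 µg/ml, again overlapping (log2 0.029, adjusted p = 0.784). CCNE2, cyclin E2, had 7.21, 6.81 and 5.80 FPKM without oxLDL and 5.07, 5.79 and 5.97 with 100 µg/ml. Its log2 change of -0.216 (SE 0.086) was not called (adjusted p = 0.105), but it was without untreated replicate 3 (-0.301, adjusted p = 0.033). CCNE2 overlaps INTS8 and NDUFAF6 on the opposite strand.

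**Figure D5:**
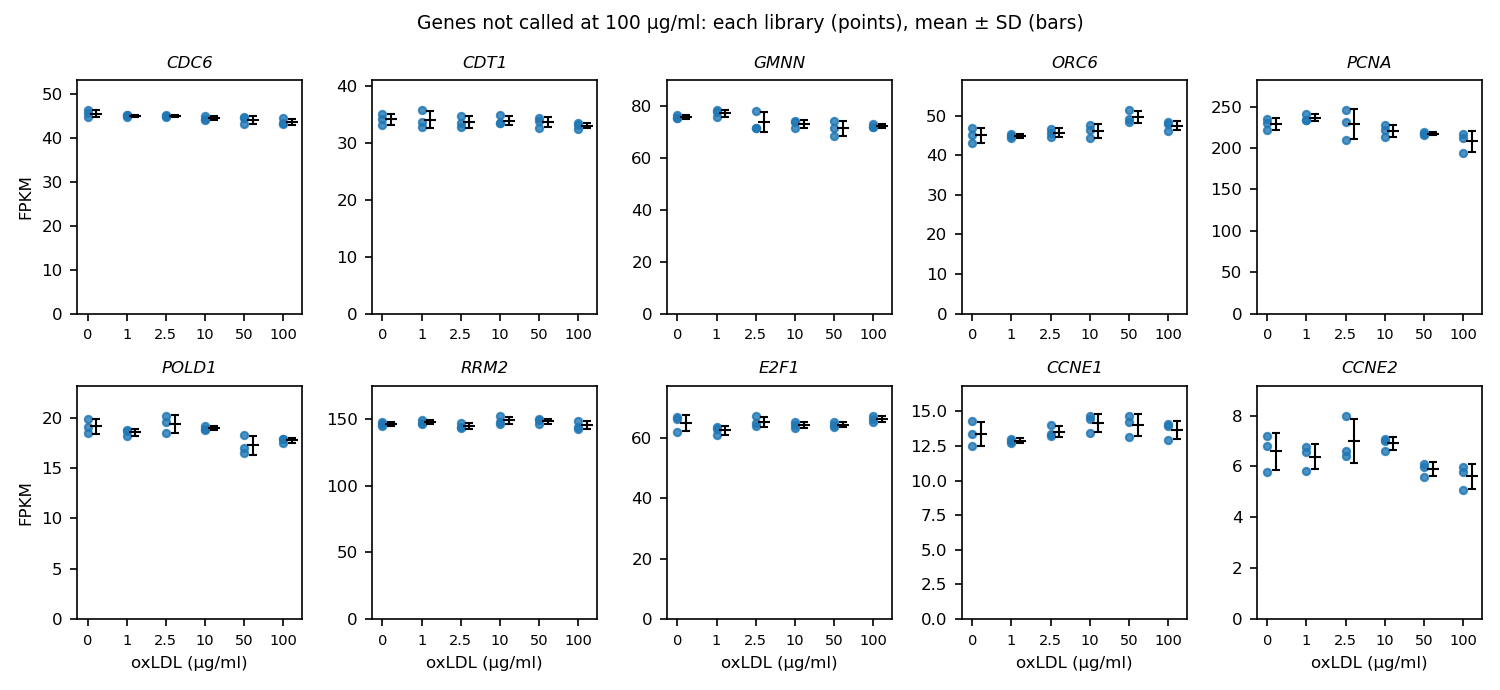
FPKM of 10 replication genes not called at 100 µg/ml, by oxLDL dose in µg/ml; points are libraries and bars the mean ± SD of 3, on axes from 0. RRM2 (142.9 to 148.8 FPKM with 100 µg/ml against 145.1 to 147.7 without oxLDL) and E2F1 (65.4 to 67.3 against 62.0 to 66.8) overlap between doses. The 100 µg/ml points of CDC6, GMNN, PCNA and POLD1 lie below all untreated ones, and ORC6 and POLD1 were called at 50 µg/ml.

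Over all doses the slope on log2(dose + 1) called 18 of the 49 genes lower and 3 higher, against 12.6% and 13.0% of all genes tested. The 3 that rose were ORC4, ORC6 and PRIM2, with slopes of 0.013, 0.018 and 0.014 log2 units per unit of log2(dose + 1). LIG1 (-0.036, SE 0.007, adjusted p = 0.00102), GINS1 (-0.032, SE 0.006, adjusted p = 0.000587), CCNE2 (-0.032, SE 0.011, adjusted p = 0.0434) and TK1 (-0.030, SE 0.005, adjusted p = 0.000241) had the steepest falls. In the lagging strand role 5 of 6 genes fell by this measure. TYMS, called lower at 100 µg/ml, was not called by the slope, while PCNA, CDC6, GMNN, POLD1, RNASEH2A, RPA1, RPA3, ORC3 and CCNE2 were called by the slope and not at 100 µg/ml. Without 100 µg/ml replicate 3 the slope called 13 genes in place of 21, and of these 11 fell. Between neighbouring doses no replication gene was called from 10 to 50 µg/ml, where 2.61% of all genes were, nor from 50 to 100 µg/ml, where 0.28% were. The counts at an unadjusted p under 0.05 were 12 and 3 (24.5% and 6.12%, against 16.8% and 8.33% of all genes tested). From 10 to 50 µg/ml GINS1 was called without 10 µg/ml replicate 3 (log2 -0.185, adjusted p = 0.041), POLD1 without 50 µg/ml replicate 3 (-0.176, adjusted p = 0.0412), and POLE and LIG1 by limma-voom. From 50 to 100 µg/ml TYMS was called without 50 µg/ml replicate 1 (-0.201, adjusted p = 0.0451).

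Other genes of the pathway, from lists set by role, were compared in the same way at 100 µg/ml, where 7.51% of all genes tested were called lower and 7.94% higher. Several of the counts below are near those shares. All 6 MCM subunits were below 0, and 4 fell, with a median log2 change of -0.112. MCM7 went from 176.8 ± 4.56 to 117.7 ± 3.57 FPKM (log2 -0.586, SE 0.032, adjusted p = 1.6e-09), a larger log2 change than in any of the 49 genes, though that difference was not tested, while MCM6, MCM4 and MCM3 changed by -0.199, -0.12 and -0.091. Of 29 other replication factors DONSON, which helps set up the helicase, fell (log2 -0.292, adjusted p = 8e-06) and TOP1, the type I topoisomerase, rose (0.203, adjusted p = 0.0148). Among 23 further nucleotide supply genes 4 fell and 2 rose, the falls including DTYMK (-0.132) and DUT (-0.13), both of the thymidine nucleotide route, and the rises CTPS1 (0.165) and MTHFD2 (0.146). Of 21 other chromatin assembly genes 3 fell, NASP (-0.147), CDCA7 (-0.146) and HELLS (-0.219), and the histone chaperone ASF1A rose (0.268).

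The G1 to S control genes moved in both directions, 3 lower and 4 higher of 27 with 100 µg/ml, beside the 7.51% and 7.94% of all genes tested. CDKN1A, the p21 inhibitor of cyclin-dependent kinases, rose from 48.75 ± 3.20 to 68.54 ± 1.04 FPKM (log2 0.489, SE 0.056, adjusted p = 1.73e-05), and CCND1, cyclin D1, rose by 0.344. CDKN2B and CDKN1B, encoding the inhibitors p15 and p27, fell by 0.631 and 0.23 on the log2 scale, and SKP2, a ubiquitin ligase subunit that targets p27, fell by 0.386. Of 24 S phase checkpoint and repair genes 2 fell, among them MSH6 (-0.148), and the list had a median of -0.061. Genes of G2 and mitosis, 25 in number, had 7 lower and 0 higher and a median of -0.055, beside -0.068 for the replication genes. With 100 µg/ml 23 of these 25 were below 0 (92.0%), beside 38 of 49 replication genes (77.6%). With 50 µg/ml their median was 0.025, with 10 of 25 below 0, beside -0.036 and 38 of 49 for the replication genes. Among them KIF20A, KIF23 and MYBL2 changed by -0.269, -0.163 and -0.232. Of the pathway genes named, MCM7 (AP4M1), DONSON (SON), MTHFD2 (SLC4A5), ASF1A (MCM9), CCND1 (LTO1), CDKN2B (CDKN2B-AS1), MSH6 (FBXO11) and KIF20A (BRD8 and CDC23) overlap the listed gene in brackets on the opposite strand.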

How the data were processed

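HMC3 poly-A libraries were made with an unstranded NEBNext Ultra kit, per the labels' protocols. The authors deposited FPKM per gene and library. HISAT2 2.0.5, featureCounts, DESeq2 and build hg38 are named in the submitters' processing notes, with no roles. The strand setting of the counting is not given in the sources used here. Of the replication genes 11 overlap a listed gene on the opposite strand, among them RPA1, RPA3, RNASEH2A, RFC5 and CHAF1A. Whole reads were recovered from the FPKM steps by a search for a length that gave them within 0.05 reads in every library. Such a length was found for all 13992 genes (100.0%). Of 345 single-exon genes 30.4% had a recovered length equal to that of GENCODE 29. A gene was tested if 3 or more libraries reached 0.5 FPKM (12127 genes). One limma model, limma 3.58.1 under R 4.3.3, took all libraries on log2(FPKM + 0.5), with a mean per dose, 12 residual degrees of freedom, a variance trend and Benjamini-Hochberg adjustment over all genes tested. This scale understates changes of low genes. As an alternative, the recovered reads were fitted by limma-voom, which called 2006 genes at 100 µg/ml and 1233 at 50 µg/ml. Gene positions are from GENCODE 29 and promoters from RefSeq. The genes and lists were chosen with earlier results of these data known. Genes given with values are those called at 50 or 100 µg/ml, in each role the gene with the highest level and that with the largest change, and PCNA, E2F1, CDC6, CDT1, GMNN, CCNE1, CCNE2, RRM2, TYMS and TK1. Of each pathway list those with the smallest p are named. Further genes named were chosen after their values were seen. Protein sequences were not analysed here, and some genes of the marker and pathway lists are not reported here. Markers of astrocytes (2 of 4 listed), neurons (2 of 4), oligodendrocytes (1 of 3) and endothelium (1 of 4) had mean summed FPKM of 2.03, 32.9, 0.0648 and 0.0517 without oxLDL.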

Additional observations from a re-analysis of the deposited data

How the results depend on the processing

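Of the replication genes, 7 to 12 were called at 100 µg/ml under every setting tried. At 50 µg/ml, where 3 were called, the count was 7 after median-ratio scaling, 1 without the variance trend, 6 by limma-voom, and 1 to 2 when a library was left out. From 10 to 50 µg/ml it was 0, and 2 by limma-voom, with 0 to 1 when a library was left out, and from 50 to 100 µg/ml it was 0 to 1. The slope called 21 genes, and 13 to 23 when a library was left out. Signs turned only in genes not called and near 0. When a library was left out, the log2 change at 50 µg/ml ran from -0.041 to 0.001 for CDT1, -0.002 to 0.073 for TYMS and -0.047 to 0.007 for E2F1. At 100 µg/ml it ran from -0.027 to 0.002 for RRM2, -0.048 to 0.048 for DNMT1, -0.006 to 0.048 for E2F1 and -0.018 to 0.074 for CCNE1. The cause of these shifts was not tested.

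Deviations of libraries with the same replicate number had a mean correlation of 0.0168 over 45 pairs (-0.333 to 0.245). For pairs with other numbers it was -0.00837 over 90 pairs (-0.236 to 0.253). Of 18 libraries 5 correlated best with their own number. These values cannot exclude a weak pairing. With the replicate number as a block 4 replication genes were called at 50 µg/ml, 10 at 100 µg/ml and 22 by the slope. With 3 libraries a dose the median SE of the replication genes at 100 µg/ml was 0.043, and none of their log2 changes under 0.1 was called there. The smallest change called among them was -0.105 in FEN1, whose SE was 0.025. Outside these genes smaller changes were called, such as -0.091 in MCM3 (SE 0.027). Larger ones, such as -0.14 in PCNA, -0.151 in POLA1 and -0.216 in CCNE2, were not called. A gene not called can thus have changed by more than 0.1.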

Other observations

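In 14 of the 18 libraries, longer and shorter replication genes had medians on opposite sides of their dose mean, a split made after the values were seen. Libraries of a dose share that mean, so the 18 are not independent. The split was not made over all genes tested, so it cannot be called particular to replication genes. The gap, longer minus shorter, was widest in replicate 3 at 2.5 µg/ml (0.087). Next came replicate 1 at 2.5 µg/ml (-0.064) and replicate 1 at 1 µg/ml (-0.06). Over all genes tested, replicate 3 at 2.5 µg/ml also had the highest median difference from the untreated mean (0.03). In that replicate 3 the 24 longer genes by GENCODE exon length had a median difference from the dose mean of 0.06 and the 24 shorter ones of -0.027, on the log2 scale. POLE (12.9 FPKM), TIMELESS (27.1), DNMT1 (49.9), CCNE2 (7.98) and CLSPN (15.2) were highest of their dose there, and PCNA (210.3), TK1 (448.5), RNASEH2A (72.0) and RFC2 (49.1) were lowest. Other genes went against the split. The shorter ORC1 (16.27) and RFC3 (0.86) were also highest there, and the longer ORC4 (9.505), GINS3 (17.41) and ORC6 (44.59) were lowest. By the same split, 2 of the 24 longer genes were called lower at 100 µg/ml against 0 µg/ml, with a median of -0.069. Among the 24 shorter ones 7 were called lower, with a median of -0.057. GINS1, also called lower, has the median length of 4068 bases and was in neither set. Of all genes tested 7.51% were called lower at this dose. Whether length plays a part in the calls was not tested.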
